A study of Mus musculus with 13 samples.

Results

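The genes described here make sterols, fatty acids and serine in regulatory T (Treg) cells, or supply and control that synthesis. They were taken by symbol from a list of 33 genes, all of which were found among the 26720 genes of the count table. The list holds 17 sterol genes (14 enzymes and 3 regulators), 5 fatty acid enzymes, and 11 amino acid and one-carbon genes (4 transporters, 2 stress regulators, 4 serine and one-carbon enzymes, and Asns, which makes asparagine). RNA was sequenced from CD4+YFP+ spleen cells of mice aged around 4 to 5 weeks, in 6 libraries from Foxp3YFPCre/+ Stk3∆/∆ Stk4∆/∆ mice (deleted) and 7 libraries from Foxp3YFPCre mice (control). Foxp3 is the transcription factor that defines Treg cells, and both groups carry the YFPCre allele under its control, so Cre acts in Foxp3-expressing cells and the YFP sort takes them. Stk3 and Stk4 encode the Hippo pathway kinases MST2 and MST1. By the labels the deleted mice are heterozygous for YFPCre, while zygosity of the controls is not stated there, so Cre dose and deletion cannot be told apart. The Foxp3 gene is X-linked, so a heterozygous female also keeps Treg cells without an active Cre allele, and the sort leaves those out. No label ties a library to a mouse. P-values here therefore measure how far libraries differ, which may be technical.

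Cells build cholesterol from acetyl-CoA through the mevalonate pathway, and the transcription factor SREBP2 (Srebf2) raises its enzymes when membrane sterol runs low, while INSIG1 holds the factor back. SREBP1 (Srebf1) raises the enzymes of fatty acid synthesis, which build palmitate from acetyl-CoA and put in the first double bond. Serine is made from a glycolytic intermediate by PHGDH, PSAT1 and PSPH, and mitochondrial SHMT2 and MTHFD2 pass a carbon of serine to folate for nucleotide synthesis. ATF4, a factor of the amino acid stress response, raises the serine enzymes, asparagine synthetase and amino acid transporters, and T cells are known to switch on lipid and serine synthesis when they are activated and grow.

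Levels are counts of a gene per 1e+06 counts of its library (CPM), after TMM scaling (trimmed mean of M values), and can be compared between libraries for a gene but not between genes, since transcript lengths were not used. Total counts ranged from 2671660 to 8323919 and averaged 3616413 in deleted libraries, against 5667337 in control libraries (two-sided exact permutation test over libraries, p = 0.00816). Receptor genes of the olfactory and vomeronasal sensory neurons took 1.29 ± 0.367% of all counts in deleted libraries (SD, n = 6), against 0.712 ± 0.256% in control libraries (SD, n = 7), a difference with a two-sided exact permutation p = 0.00641. This receptor share moves with genotype and stands beside every result below. Stk3 averaged 33.6 ± 6.32 CPM in deleted libraries, against 33.9 ± 7.51 CPM in control libraries, and Stk4 171 ± 119 CPM in deleted libraries, against 213 ± 55.9 CPM in control libraries. Neither was called, and whole-gene counts cannot tell whether deleted exons are missing. Stk4 had 394 CPM in deleted replicate 1, the highest of all 13 libraries, against 57.9 to 204 CPM in the other deleted libraries and 136 to 291 CPM in control libraries. Without that library the 8 members reported as lower were all called lower, with 3 more. Of all 24240 genes tested there 2518 were called lower, against 2050 of 24068 with all libraries. Of the 7 T and Treg markers 5 fell, with a summed level of 823 to 1722 CPM in deleted libraries, against 1183 to 4763 CPM in control libraries. Of 6 B cell markers 3 fell and 1 rose, with a summed level of 138 to 207 CPM in deleted libraries, against 363 to 1175 CPM in control libraries. Of the markers of CD8 T cells, NK cells, myeloid cells and erythroid cells, 0 of 2, 0 of 2, 0 of 4 and 0 of 3 were called by edgeR, also at an unadjusted p under 0.05, and no listed marker was at 0 in every library. The part of other cells in the results below was not tested. In bulk RNA, fewer T cells and less of a transcript per T cell cannot be told apart.

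The comparison asks what loss of Stk3 and Stk4 did to the transcripts of these pathways. Of the 33 members, 8 fell in deleted Treg cells and 25 did not pass the test. The enzymes of serine synthesis and of its use for folate, Phgdh, Psat1, Shmt2 and Mthfd2, all fell, with a median log2 fold change of -1.21. Phgdh (-1.60), Shmt2 (-1.30) and Psat1 (-1.11) were the lowest members. Mthfd2 (-0.83) lay above Dhcr7 (-1.0), Scd2 (-0.89) and Slc3a2 (-0.84). Of the 14 sterol enzymes 2 fell, Fdps and Dhcr7, of the 5 fatty acid enzymes 1, Scd2, and of the 4 transporters 1, Slc3a2. Calls are from edgeR's quasi-likelihood F test at a Benjamini-Hochberg adjusted p under 0.05, adjusted over the 24068 genes tested, of which 8.52% fell and 1.66% rose. By edgeR 0 members rose, 1 was higher at an unadjusted p under 0.05, and limma-voom called 1 higher, Lss. The share of all genes at an unadjusted p under 0.05 was not counted.

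The share of members that fell, 24.2%, has to be read at the members' own level, since highly expressed genes fell more often. Of the 11344 genes between the lowest member, at 11 CPM, and 50 CPM, 6.62% fell, against 4 of 18 members (22.2%). Of the 4555 genes from 50 CPM to the highest member, at 169 CPM, 21.4% fell, against 4 of 15 members (26.7%). Over these higher genes the median log2 fold change was -0.33 for all genes and -0.48 for the members. In the lower range it was 0.07 for all genes and -0.42 for the members. The members were 0.177 ± 0.0118% (SD, n = 6) of all counts in deleted libraries, against 0.192 ± 0.0127% (SD, n = 7) in control libraries (exact two-sided permutation p = 0.0548). By the authors' deposited table, at a threshold of 0.05 on the mean false discovery rate, 8 members were lower and 0 higher. These were the 8 genes that fell here. That table compares the same libraries, so the match is no independent evidence, and its share of all genes at this threshold was not counted.

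**Figure D1:**
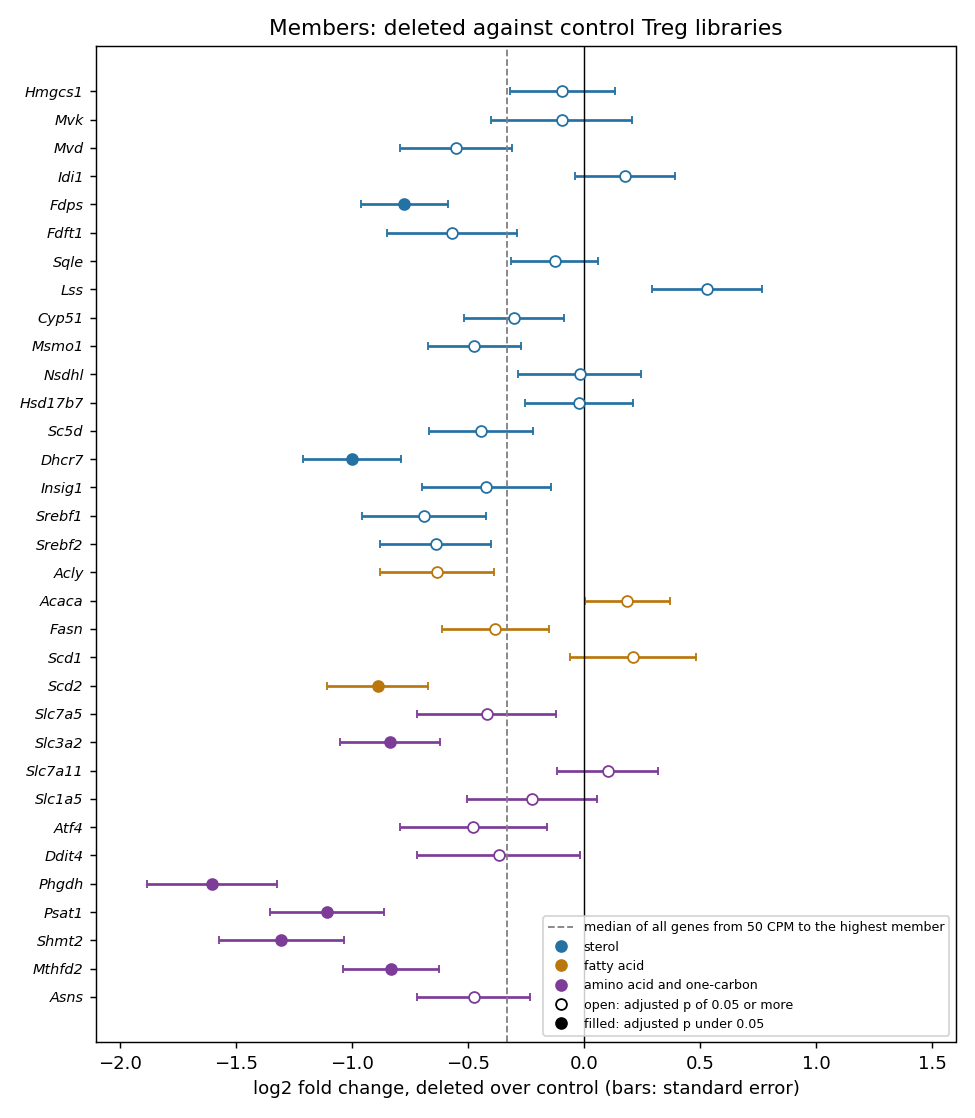
Log2 fold change of each of the 33 members, deleted over control libraries, with its standard error, coloured by pathway and filled where the adjusted p was under 0.05. The dashed line is the median of all genes from 50 CPM to the highest member, -0.33. Phgdh, at -1.60, lies farthest to the left, and Lss, at 0.53, farthest to the right.

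The promoters of the 4 serine and one-carbon enzymes are printed because these genes fell together, that of Asns because it holds letters of an ATF4-type element although Asns was not called, and that of Hmgcs1 because it alone among the members with a promoter holds the sterol element searched for. Each runs from 250 bases before the annotated start to 50 after it, from RefSeq on GRCm38.p6, 5′ to 3′ on the gene's strand. Capitals mark every match to the 4 motifs described after the sequences. For Psat1 the first of 2 listed promoters is shown.
Phgdh, chr3:98339920-98340219, minus strand: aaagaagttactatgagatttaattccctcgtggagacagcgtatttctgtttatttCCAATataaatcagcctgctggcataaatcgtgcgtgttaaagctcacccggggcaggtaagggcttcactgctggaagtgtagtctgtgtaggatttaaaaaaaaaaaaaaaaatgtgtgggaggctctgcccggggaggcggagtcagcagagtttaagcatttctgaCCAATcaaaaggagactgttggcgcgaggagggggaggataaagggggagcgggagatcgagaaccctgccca
Psat1, chr19:15925010-15925309, minus strand: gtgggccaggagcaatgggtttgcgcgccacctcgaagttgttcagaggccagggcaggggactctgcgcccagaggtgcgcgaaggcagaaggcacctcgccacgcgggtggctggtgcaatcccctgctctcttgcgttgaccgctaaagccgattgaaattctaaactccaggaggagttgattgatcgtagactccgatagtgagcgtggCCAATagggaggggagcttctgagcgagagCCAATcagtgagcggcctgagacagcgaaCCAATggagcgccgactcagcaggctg
Shmt2, chr10:127522395-127522694, minus strand: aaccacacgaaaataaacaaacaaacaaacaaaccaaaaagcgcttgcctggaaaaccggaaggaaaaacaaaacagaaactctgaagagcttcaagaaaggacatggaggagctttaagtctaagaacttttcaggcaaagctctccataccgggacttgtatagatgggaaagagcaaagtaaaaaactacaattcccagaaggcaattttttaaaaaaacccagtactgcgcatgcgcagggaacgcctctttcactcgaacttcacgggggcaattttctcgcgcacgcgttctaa
Mthfd2, chr6:83317555-83317854, minus strand: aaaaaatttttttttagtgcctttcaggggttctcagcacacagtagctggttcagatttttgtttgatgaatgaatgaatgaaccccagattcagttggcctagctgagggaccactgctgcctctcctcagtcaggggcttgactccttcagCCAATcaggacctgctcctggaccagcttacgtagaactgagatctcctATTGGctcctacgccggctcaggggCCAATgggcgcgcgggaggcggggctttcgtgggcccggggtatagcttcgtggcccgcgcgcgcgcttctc
Asns, chr6:7693160-7693459, minus strand: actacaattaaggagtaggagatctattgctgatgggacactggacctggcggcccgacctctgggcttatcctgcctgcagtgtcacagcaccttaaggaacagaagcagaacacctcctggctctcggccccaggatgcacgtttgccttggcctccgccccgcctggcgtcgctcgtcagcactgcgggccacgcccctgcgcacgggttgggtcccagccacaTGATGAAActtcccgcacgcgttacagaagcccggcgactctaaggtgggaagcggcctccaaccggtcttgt
Hmgcs1, chr13:119690101-119690400, plus strand: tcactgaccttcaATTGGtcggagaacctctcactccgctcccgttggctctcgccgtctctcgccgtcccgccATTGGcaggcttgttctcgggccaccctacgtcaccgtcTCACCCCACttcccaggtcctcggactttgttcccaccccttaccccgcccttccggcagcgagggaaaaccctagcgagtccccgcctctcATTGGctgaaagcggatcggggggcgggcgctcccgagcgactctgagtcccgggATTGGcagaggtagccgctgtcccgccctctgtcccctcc

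Motifs were searched on both strands in the promoters of 26 of the 33 members, 14 of them sterol, 3 fatty acid and 9 amino acid and one-carbon genes. The sterol regulatory element was written as TCACNCCAC, the E-box as CACGTG, the C/EBP-ATF response element as TGATGNAA and the NF-Y box as CCAAT, and none of them contains another. All 14 sterol genes held CCAAT, as did 2 of the 3 fatty acid genes, 6 of the 9 amino acid and one-carbon genes and 41.1% of all 27025 genes with a promoter. CACGTG stood in 4 of the 14 sterol genes (Hsd17b7, Insig1, Dhcr7 and Sc5d), in 0 of the 12 others, and in 8.09% of all genes. TGATGNAA stood in 2 of the 9 amino acid and one-carbon genes, Slc7a11 and Asns, neither of them called, in the sterol gene Idi1, and in 4.51% of all genes. TCACNCCAC stood in Hmgcs1 and in 1.44% of all genes. The printed promoter of Shmt2 holds none of the 4 motifs, those of Phgdh, Psat1 and Mthfd2 hold only CCAAT, and letters absent from this window say nothing about the factors.

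Phgdh, the enzyme of the first and committed step of serine synthesis, showed the largest change of the 33 members. It had 22.2, 39.4, 17.2, 33.4, 28.3 and 9.13 CPM in deleted libraries, against 65.6, 45.5, 70.7, 93.6, 123, 74.0 and 59.2 CPM in control libraries. Every deleted library lay under every control library. How many of all genes tested separate the groups in this way was not counted, here or for the genes below. The lowest value, in deleted replicate 7, was 32 reads and the highest, in control replicate 5, 688 reads, so counting error is small beside the spread between libraries. The log2 fold change was -1.60 (SE 0.28, edgeR adjusted p = 0.00152). RefSeq lists a processed copy of the gene, Phgdh-ps1, which has no row of its own in the count table, and how reads shared with it were handled is not given in the sources used here.

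Psat1, the aminotransferase of the next step, had 45.8, 27.8, 24.1, 27.3, 21.5 and 23.4 CPM in deleted libraries, against 42.0, 53.6, 73.4, 66.7, 105, 48.4 and 38.0 CPM in control libraries. Only deleted replicate 1 reached the control range, and 5 of 6 deleted libraries lay under the lowest control library. The log2 fold change was -1.11 (SE 0.25, edgeR adjusted p = 0.00742). Psph, which finishes serine synthesis and was listed among the other pathway genes, averaged 33.6 ± 6.37 CPM in deleted libraries, against 46 ± 13.1 CPM in control libraries (SD, n = 6 and 7) and was not called, at -0.45 (SE 0.21, edgeR adjusted p = 0.174).

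Shmt2, the mitochondrial enzyme that splits serine into glycine and a folate-bound carbon, had 33, 29.1, 10.3, 32.9, 19.3 and 24.5 CPM in deleted libraries, against 52.7, 26.4, 65.9, 76.5, 91.3, 58.0 and 58.9 CPM in control libraries. The groups overlapped through control replicate 2, and the other 6 control libraries lay above every deleted library. The log2 fold change was -1.30 (SE 0.27, edgeR adjusted p = 0.00528). Mthfd2, which oxidises the folate-bound carbon in mitochondria, had 51.8, 41.7, 40.4, 42.1, 40.5 and 40.0 CPM in deleted libraries, against 81.0, 38.1, 74.5, 85.9, 103, 66.4 and 83.1 CPM in control libraries. Here too 6 of 7 control libraries lay above every deleted library and control replicate 2 lay lowest of all. The log2 fold change was -0.83 (SE 0.21, edgeR adjusted p = 0.0139). Shmt2 overlaps the neighbouring gene Ndufa4l2 by 32 bases, with 2781 counts for Shmt2 and 112 for Ndufa4l2 over all libraries, and the strand setting of the counting is not given in the sources used here.

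**Figure D2:**
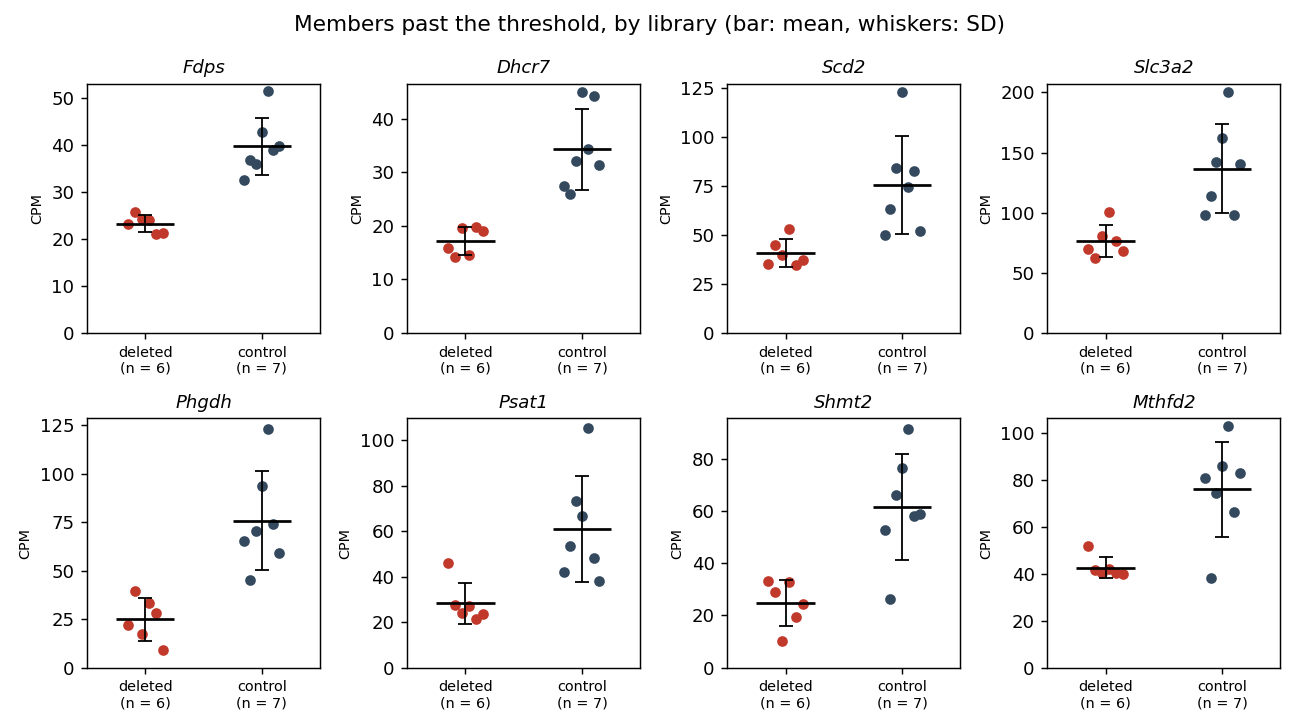
Level in CPM of the 8 members that fell, one point per library, with deleted libraries in red at the left and control libraries in dark blue at the right of each panel, and the mean and SD as bar and whiskers. The groups do not overlap for Fdps, Dhcr7 and Phgdh, and in the other 5 panels they overlap through deleted replicate 1, deleted replicate 4 or control replicate 2. The share of all genes tested whose groups do not overlap was not counted.

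Summed over the 4 serine and one-carbon enzymes, levels were 121 ± 24.7 CPM (SD, n = 6) in deleted libraries, against 274 ± 81.4 CPM (SD, n = 7) in control libraries. The ranges, 92.1 to 153 CPM and 164 to 423 CPM, did not overlap, which the choice of genes that had all fallen makes likely. A ratio within a library does not depend on how libraries are scaled. Per count of the 14 sterol enzymes, the serine and one-carbon enzymes had 24.6 ± 4.40% (SD, n = 6) in deleted libraries, against 45.0 ± 8.69% (SD, n = 7) in control libraries. Deleted libraries ran from 18.3 to 28.8% and control libraries from 36.6 to 59.2%, again with no overlap. This set leaves out Asns and was defined after the values were seen. With Asns the ratio was 24.3 to 33.9% in deleted libraries, against 41.9 to 64.2% in control libraries. For the fatty acid enzymes this ratio to the sterol enzymes was 75.6 ± 9.66% in deleted libraries, against 78.9 ± 13.1% in control libraries. For the transporters it was 58.4 ± 13.6% in deleted libraries, against 61.1 ± 12% in control libraries. Both differences were smaller than the SD within a group.

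Set against T cell transcripts, the result depended on which of them was used. Cd3e, Cd3g and Cd4, which encode parts of the T cell receptor complex and its coreceptor, fell in the same fit, with log2 fold changes of -1.35 for Cd3e and -1.01 for Cd4. Per count of these 3 genes, the serine and one-carbon enzymes had 17.2 ± 3.09% (SD, n = 6) in deleted libraries, against 17.9 ± 4.88% (SD, n = 7) in control libraries, with overlapping ranges. Per count of all 7 T and Treg markers, 5 of which fell, they had 9.41 ± 1.57% in deleted libraries, against 10.4 ± 2.80% in control libraries. Foxp3, which defines the sorted cells, was not called, with 44.0 ± 16.2 CPM in deleted libraries, against 54.1 ± 12.1 CPM in control libraries, at a log2 fold change of -0.30 (SE 0.24, edgeR adjusted p = 0.463). Per count of Foxp3, the serine and one-carbon enzymes had 3.10 ± 1.37 counts in deleted libraries, against 5.03 ± 0.668 counts in control libraries. Here 5 of 6 deleted libraries lay under the lowest control library, and deleted replicate 7, with Foxp3 at 16.6 CPM, lay at 5.86. The sterol enzymes had 71.8 ± 16.1% of the counts of Cd3e, Cd3g and Cd4 in deleted libraries, against 41.3 ± 14.5% in control libraries. Per count of Foxp3 they had 12.9 ± 5.99 counts in deleted libraries, against 11.4 ± 1.51 counts in control libraries. These ratios were chosen after the values were seen and carry no test.

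**Figure D3:**
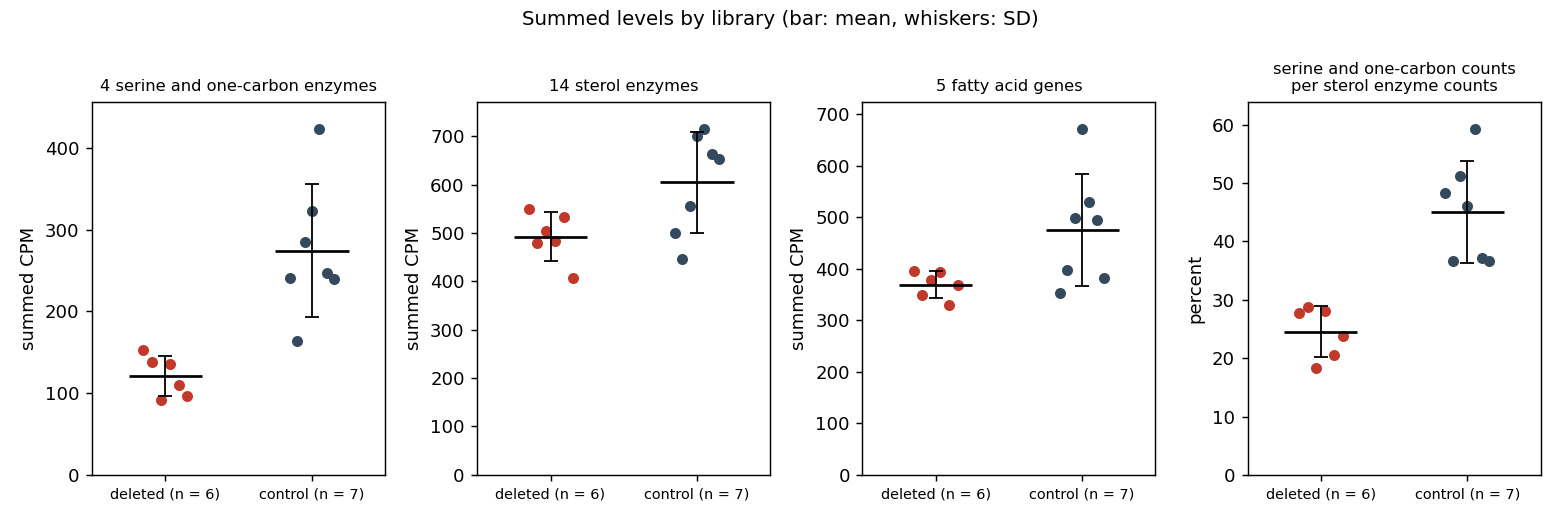
Summed CPM per library of the serine and one-carbon, sterol and fatty acid enzymes, and the serine and one-carbon counts in percent of the sterol enzyme counts, with deleted libraries left, control libraries right, and the mean and SD as bar and whiskers. The groups are apart in the first and last panel and overlap in the middle panels.

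Among the amino acid transporters, Slc3a2 (chr19:8706882-8723369, all gene positions on GRCm38.p6), the shared heavy chain that brings several exchangers to the cell surface, fell. It ran from 62.6 to 101 CPM with a median of 73.1 CPM in deleted libraries, and from 98 to 200 CPM with a median of 141 CPM in control libraries. Deleted replicate 4 alone reached the control range, and the log2 fold change was -0.84 (SE 0.22, edgeR adjusted p = 0.0166). Its partner in leucine uptake, Slc7a5, ran from 8.28 to 25.1 CPM with a median of 11.7 CPM in deleted libraries, and from 10.9 to 29.8 CPM with a median of 17.0 CPM in control libraries. The groups overlapped broadly, at a log2 fold change of -0.42 (SE 0.30, edgeR adjusted p = 0.395). Its other partner Slc7a11, which takes up cystine, had a log2 fold change of 0.10 and the glutamine carrier Slc1a5 one of -0.23, and neither was called.

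The factor upstream, Atf4, was not called, with 45.6 to 186 CPM and a median of 67.5 CPM in deleted libraries, against 47.6 to 167 CPM and a median of 122 CPM in control libraries. Deleted replicate 1, at 186 CPM, was the highest of all 13 libraries, while the other 5 deleted libraries lay at or under 81.7 CPM. The log2 fold change was -0.48 (SE 0.32, edgeR adjusted p = 0.356), and without deleted replicate 1 Atf4 was called lower. On all 13 libraries limma-voom with sample weights called Atf4 lower (-0.81, limma-voom adjusted p = 0.0319). With the receptor share as covariate the log2 fold change of Atf4 was 0.40 (SE 0.29). Ddit4, an mTOR inhibitor of the stress response, was the member of lowest level and was not called (-0.37). Asns, a well-known ATF4 target, ran from 12.6 to 30.5 CPM with a median of 22.8 CPM in deleted libraries, and from 16.5 to 43.4 CPM with a median of 34.0 CPM in control libraries. It overlapped between groups and was not called, at -0.48 (SE 0.24, edgeR adjusted p = 0.219).

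In the sterol pathway, the members that fell stand in the middle and at the end. Fdps (chr3:89093588-89101967), which makes farnesyl diphosphate for sterols and for protein prenylation, ran from 21.0 to 25.7 CPM with a median of 23.7 CPM in deleted libraries, and from 32.7 to 51.6 CPM with a median of 39.0 CPM in control libraries. Every deleted library lay under every control library, and the log2 fold change was -0.77 (SE 0.19, edgeR adjusted p = 0.0116). Dhcr7 (chr7:143823167-143848410), which reduces 7-dehydrocholesterol to cholesterol as a last step, ran from 14.1 to 19.8 CPM with a median of 17.5 CPM in deleted libraries, and from 25.9 to 45.0 CPM with a median of 32.0 CPM in control libraries. Again the groups did not overlap, at a log2 fold change of -1.0 (SE 0.21, edgeR adjusted p = 0.0058). Its level in deleted libraries lies within that of the receptor genes, whose 90th percentile was 19.7 CPM in deleted libraries, against 13.9 CPM in control libraries, and so do the deleted levels of Mvk, Insig1, Scd1, Slc7a5 and Ddit4.

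The other 12 sterol enzymes did not pass the test. Hmgcs1, which makes the HMG-CoA that feeds the mevalonate pathway, had 58.0 ± 14.2 CPM (SD, n = 6) in deleted libraries, against 61.9 ± 19.7 CPM (SD, n = 7) in control libraries, at a log2 fold change of -0.09 (SE 0.22). Sqle, the monooxygenase that is a rate-limiting step after the mevalonate pathway, ran from 45.7 to 69.1 CPM with a median of 50.9 CPM in deleted libraries, and from 45.3 to 75.2 CPM with a median of 59.6 CPM in control libraries. Its groups overlapped nearly fully, at -0.13 (SE 0.19, edgeR adjusted p = 0.709). Lss, which closes the sterol rings, was the member with the highest log2 fold change, 0.53 (SE 0.24, edgeR adjusted p = 0.151), with 27.1 ± 7.76 CPM in deleted libraries, against 18.8 ± 4.19 CPM in control libraries. A noncoding gene, 4930483K19Rik, overlaps Lss by 11269 bases, with 133 counts over all libraries against 1327 for Lss.

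The remaining 9 sterol enzymes lay between -0.57 for Fdft1, the squalene synthase, and 0.18 for Idi1, which isomerises isopentenyl diphosphate. Mvd, which decarboxylates mevalonate diphosphate, stood at -0.55, and Msmo1, Sc5d and Cyp51, which modify the sterol nucleus, at -0.47, -0.44 and -0.30. Mvk, the mevalonate kinase, stood at -0.10, and the late enzymes Nsdhl and Hsd17b7, which act together on the sterol nucleus, both at -0.02. Fdft1 overlaps Ctsb by 774 bases, and Ctsb had 12659 counts over all libraries against 2517 for Fdft1, so that with an unknown strand setting the value of Fdft1 is uncertain. Over all 14 sterol enzymes, summed levels were 493 ± 50.3 CPM (SD, n = 6) in deleted libraries, against 605 ± 104 CPM (SD, n = 7) in control libraries, with overlapping ranges of 407 to 551 CPM and 447 to 714 CPM.

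The regulators of lipid synthesis had log2 fold changes below 0 in the first fit, Insig1 turning to 0.06 when scaled by the genes of at least 50 CPM and Srebf1 to 0.10 with the receptor share as covariate. By edgeR 0 of 3 were called, Srebf1 and Srebf2 were lower at an unadjusted p under 0.05, and limma-voom called Srebf1 lower. Srebf2 ran from 89.1 to 160 CPM with a median of 101 CPM in deleted libraries, and from 98.3 to 248 CPM with a median of 155 CPM in control libraries, at -0.64 (SE 0.24, edgeR adjusted p = 0.0898). Srebf1 ran from 35.4 to 127 CPM with a median of 50.2 CPM in deleted libraries, and from 62.4 to 136 CPM with a median of 91.8 CPM in control libraries, at -0.69 (SE 0.27, edgeR adjusted p = 0.101). Both overlapped between groups, Srebf1 through deleted replicates 1 and 2, and Srebf1 was called lower without deleted replicate 1 and, with Srebf2, without control replicate 2. Insig1, which is itself a target of SREBP2 and holds it in the endoplasmic reticulum, ran from 13.3 to 26 CPM with a median of 17.1 CPM in deleted libraries, and from 15.2 to 44.7 CPM with a median of 22.5 CPM in control libraries, at -0.42 (SE 0.28, edgeR adjusted p = 0.352).

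Among the fatty acid enzymes Scd2 (chr19:44293676-44306864), a desaturase that puts the first double bond into stearate and palmitate, fell. It ran from 34.8 to 53.2 CPM with a median of 38.5 CPM in deleted libraries, and from 49.8 to 123 CPM with a median of 74.5 CPM in control libraries, and only deleted replicate 4 lay in the control range. The log2 fold change was -0.89 (SE 0.22, edgeR adjusted p = 0.0127). Its paralog Scd1 was not called, at 0.21 (SE 0.27), with 19.6 ± 4.42 CPM in deleted libraries, against 17.0 ± 7.80 CPM in control libraries, and how reads shared among the Scd genes were assigned is not given in the sources used here.

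Upstream, Fasn, which builds palmitate, ran from 77.3 to 164 CPM with a median of 111 CPM in deleted libraries, and from 107 to 211 CPM with a median of 157 CPM in control libraries, at -0.38 (SE 0.23, edgeR adjusted p = 0.308). Acaca, the carboxylase that makes malonyl-CoA and limits the rate of the pathway, ran from 89.2 to 125 CPM with a median of 92.5 CPM in deleted libraries, and from 74.0 to 114 CPM with a median of 82.7 CPM in control libraries, at 0.19 (SE 0.18, edgeR adjusted p = 0.554). Neither separated the groups. Acly, which makes cytosolic acetyl-CoA from citrate, stood at -0.63 (SE 0.25, edgeR adjusted p = 0.101), was called lower without control replicate 2, and stood at 0.13 with the receptor share as covariate. The 5 enzymes summed to 369 ± 26.2 CPM (SD, n = 6) in deleted libraries, against 475 ± 109 CPM (SD, n = 7) in control libraries, with overlapping ranges.

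**Figure D4:**
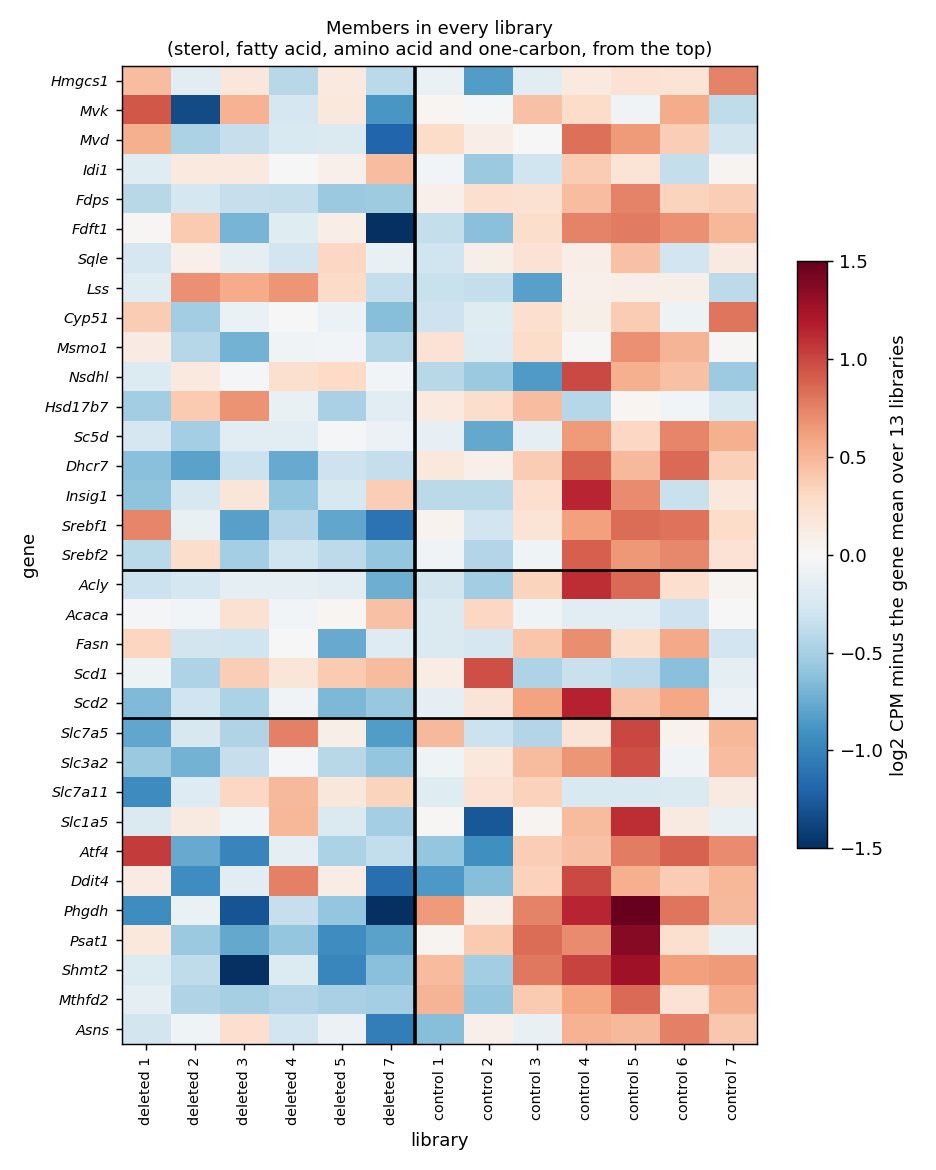
Log2 CPM of each member in every library, minus the mean of the gene over the 13 libraries, with colours cut off at -1.5 and 1.5. Deleted libraries stand left and control libraries right of the thick line. The rows of Phgdh, Psat1, Shmt2 and Mthfd2 are mostly blue in deleted and red in control libraries, reddest in control replicate 5, while control replicates 1 and 2 are paler or blue in many other rows.

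The same pathways hold 66 further listed genes, of which 65 could be tested. Of these 5 fell (7.69%, where 8.52% of all genes tested fell) and 0 rose by edgeR, and their median log2 fold change was -0.28. At an unadjusted edgeR p under 0.05, 24 of them were lower and 1 higher, with the share of all genes not counted. On the log2 scale, of 21 sterol genes 3 fell: Lbr, the lamin B receptor and sterol reductase, at -0.96 (edgeR adjusted p = 0.0304), Ebp, the sterol isomerase, at -0.99 (edgeR adjusted p = 0.0142), and Nr1h2, an oxysterol receptor, at -0.93 (edgeR adjusted p = 0.015). Of 14 fatty acid genes 1 fell, Acsl5, which activates fatty acids to their CoA forms, with a log2 fold change of -1.18 (edgeR adjusted p = 0.00361). Of 30 tested amino acid and one-carbon genes 1 fell, Tars, the threonyl-tRNA synthetase, at -0.83 (edgeR adjusted p = 0.0499). Acsl5 and Ebp were called lower with each library left out in turn. Lbr lost its call without deleted replicate 2, 3, 5 or 7 or control replicate 3, 4, 5 or 6, at an adjusted p of 0.0514 to 0.0875. Tars lost it without any of the deleted replicates 2, 3, 4, 5 and 7 or of the control replicates 4, 5, 6 and 7, at an adjusted p of 0.0552 to 0.132, and Nr1h2 without deleted replicate 5, at 0.0531. Without control replicate 2, 16 of these genes were called lower, and so were 3245 of all 23841 genes tested there (13.6%). With the receptor share as covariate, 0 of the 5 were called, with Ebp at -0.15 (SE 0.23, edgeR adjusted p = 0.918), Acsl5 at -0.61 (SE 0.23, edgeR adjusted p = 0.394) and Tars at 0.10. In libraries of similar receptor share, 0 of the 5 were called, with Ebp at -0.46 and Acsl5 at -0.77 (edgeR adjusted p = 0.475 for Ebp and 0.108 for Acsl5). Scaled by the genes of at least 50 CPM, Acsl5 (-0.75, edgeR adjusted p = 0.0121) was called and Ebp (-0.53, edgeR adjusted p = 0.0628) was not. Pmvk, which phosphorylates mevalonate phosphate, was not called, at -0.72 (edgeR adjusted p = 0.0953).

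The receptor share and the choice of genes for scaling both bear on these calls. Scaling by the genes of at least 50 CPM raised the fold changes of all genes by a median of 0.36 on the log2 scale, and 2.84% of genes then fell and 5.04% rose. Of the members, Phgdh (-1.19, SE 0.24, edgeR adjusted p = 0.00511) and Shmt2 (-0.88, SE 0.24, edgeR adjusted p = 0.0302) still fell, Psat1 stood at -0.71 (edgeR adjusted p = 0.0505), and Lss rose (0.92, SE 0.26, edgeR adjusted p = 0.033). The signs of 10 of 33 members turned, none of them among the 8 that fell in the first fit, and the median log2 fold change of the sterol members stood at 0.06. A fit of the genes of at least 50 CPM alone covers 14 members but not Phgdh, Psat1 or Shmt2. In it 13.9% of genes fell and 0 members. At an unadjusted edgeR p under 0.05, 3 members were lower and 1 higher, with the share of all genes not counted. For this fit and the scaling above, 50 CPM was taken before TMM scaling, and Phgdh averaged 52.4 CPM after it.

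With the log2 receptor share as a covariate, which itself differs between the groups, 0.233% of genes fell and 0 members were called. At an unadjusted edgeR p under 0.05, 5 members were lower and 3 higher. The share of all genes at that threshold was not counted. The 8 members all kept values below 0, with Phgdh at -0.88 (SE 0.29, edgeR adjusted p = 0.289), Dhcr7 at -0.79 (SE 0.28) and Shmt2 at -0.66 (SE 0.30), while the signs of 14 members turned. When libraries were limited to a receptor share of 0.7 to 1.4% (5 deleted, 4 control), 0.418% of genes fell, and among the members Phgdh alone did (-1.10, SE 0.24, edgeR adjusted p = 0.0348). Shmt2 stood there at -1.03 (SE 0.31, edgeR adjusted p = 0.172). Over all 13 libraries, the highest share, 1.89%, and the lowest Phgdh level were both in deleted replicate 7. The lowest share, 0.371%, and the highest Phgdh level were both in control replicate 5. At a share of 0.761%, Phgdh had 22.2 CPM in deleted replicate 1 and 70.7 CPM in control replicate 3. The part of the share in these levels was not tested. With each of the 13 libraries left out in turn, all 8 members were called lower each time, and so were 1034 to 3245 of all genes tested.

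**Figure D5:**
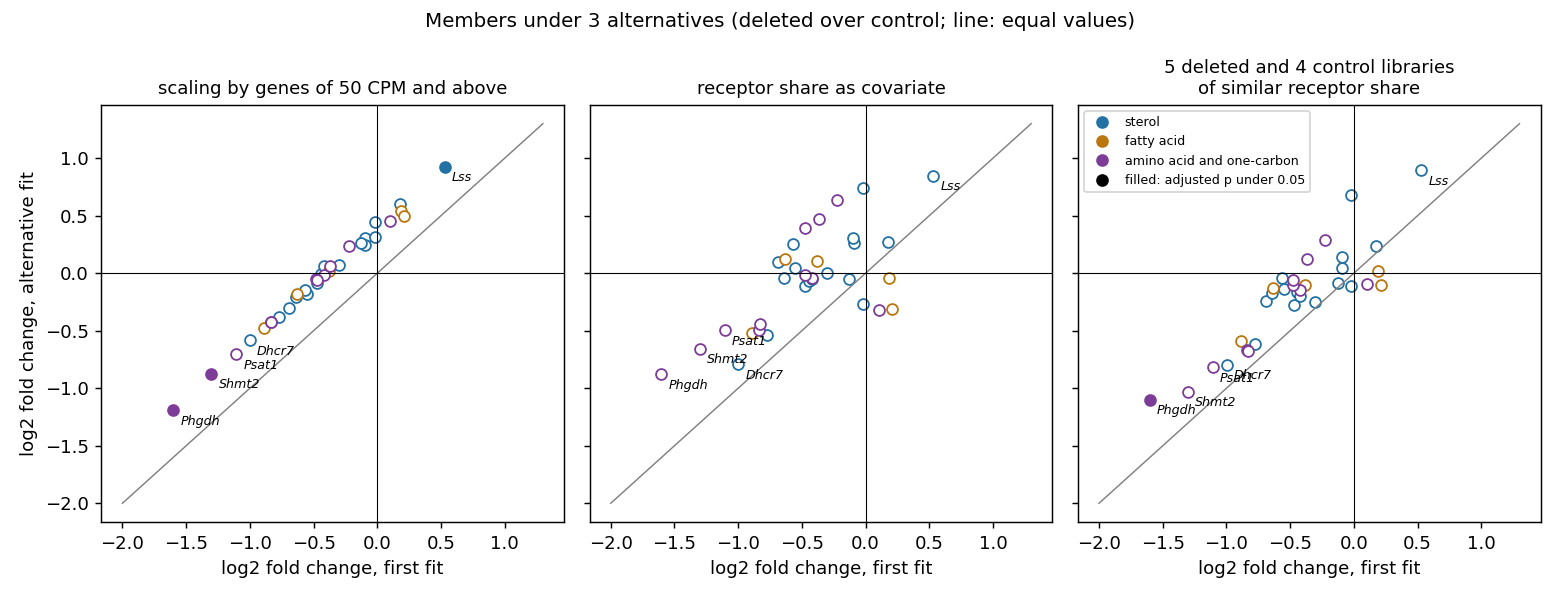
Log2 fold changes of the members, deleted over control, in the first fit (horizontal) against 3 alternatives (vertical), coloured by pathway and filled where the adjusted p was under 0.05 in the alternative, with the line of equal values. Phgdh is lowest in each panel, at -1.19, -0.88 and -1.10 from the left, and most members lie above the line.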

How the data were processed

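RNA of sorted spleen Treg cells was turned to cDNA with a SMART-Seq v4 low-input kit, per the labels' protocols. For 13 libraries, the authors deposited unnormalised counts of reads per gene. The submitters' processing notes name GRCm38 and mm10 as builds and featureCounts 2.0.1, DESeq2 1.26.0 and edgeR 3.28 as tools. Not given in the sources used here are the strand setting, the annotation and the aligner. Per the file headers, the authors' table of the comparison holds log2 values of the fold change (deleted over control), a p-value and a false discovery rate per tool, and means of these. Deposited group mean counts, a signal per group, were not used.

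Counts of all genes were kept by filterByExpr, scaled by TMM and tested with genotype as single term by the quasi-likelihood F test of edgeR 4.0.16 in R 4.3.3, with Benjamini-Hochberg adjustment over all genes and a threshold of 0.05. A standard error is the size of the log2 fold change over the square root of F. Alternatives were run with DESeq2 1.42.0 and limma 3.58.1 where they name those tools. They included 3 other scalings, 2 other tests, 3 other filters on low counts and the replicate number as a block. The others were the receptor share as covariate, libraries limited in receptor share, leaving out every library once, and a minimum log2 fold change of 1. The fit was tested on simulated counts. Named genes are all 33 members, with values over every library for those past the threshold and for the defining members of each pathway. Of the other pathway genes, those past the threshold, Pmvk and Psph are named, and some genes of the naming rule are not reported here. The members, lists and alternatives were chosen with earlier results of these data known. Total counts are 2671660 to 8323919 per library.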

Additional observations from a re-analysis of the deposited data

Results flagged for a closer look

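Of 86 sets of values of a member or a gene group within a group of libraries, 8 had a library far from the others, where chance gives about 4.3. Deleted replicate 1 stood high for Atf4, at 186 CPM (45.6 to 81.7 CPM in the other deleted libraries), for Psat1, at 45.8 CPM (21.5 to 27.8 CPM), for Mthfd2, at 51.8 CPM (40.0 to 42.1 CPM), and for the sum of the stress regulators Atf4 and Ddit4, at 197 CPM (54.4 to 98.6 CPM). This library had the lowest receptor share of the deleted group, 0.761%, and the highest Stk4 level of all 13 libraries, 394 CPM, and the part of either in these values was not tested. Without it, Psat1 and Mthfd2 were still called lower by edgeR, and so were 2518 of all 24240 genes tested there. Atf4, Mvd and Srebf1 were called lower as well, while in all libraries with the receptor share as covariate these 3 stood at 0.40, 0.04 and 0.10. Srebf2 had 160 CPM in deleted replicate 2, against 89.1 to 109 CPM in the other deleted libraries. Acly had 67.4 CPM in deleted replicate 7, against 89.9 to 102 CPM in the others. The summed level of the 4 amino acid transporters was 401 CPM in deleted replicate 4, against 233 to 290 CPM in the others. Scd1 had 33.8 CPM in control replicate 2, against 11.2 to 18.6 CPM in the other control libraries.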

How the results depend on the processing

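The count of 8 members lower was the same with DESeq2 size factors, the DESeq2 Wald test, no filter on low counts and a filter of 10 CPM in 6 libraries. Upper quartile scaling gave 1208 genes lower and 761 higher, with 1 sterol member and 3 other pathway genes lower. Scaling by genes of at least 50 CPM gave 684 lower and 1213 higher, with 2 members lower (0 sterol, 0 fatty acid, 2 amino acid and one-carbon), 1 other pathway gene lower, and 1 member higher, a sterol gene. The DESeq2 Wald test gave 728 genes higher and 9 other pathway genes lower. Limma-voom gave 2938 genes lower and 1174 higher. With it 10 members and 12 other pathway genes were lower, and 1 member (sterol) and 1 other pathway gene higher. Genes of at least 50 CPM alone gave 717 lower, with 0 members in each of the 3 classes and 2 other pathway genes. The receptor share as covariate gave 56 lower and 54 higher, with 0 members and 0 other pathway genes lower, and turned Tars to 0.10. Libraries of similar receptor share gave 101 lower and 38 higher, with 1 member lower (0 sterol, 0 fatty acid, 1 amino acid and one-carbon) and 0 other pathway genes. A log2 fold change of at least 1 gave 1144 lower and 233 higher, with 3 members (0 sterol, 0 fatty acid, 3 amino acid and one-carbon) and 1 other pathway gene. The cause of these shifts was not tested, apart from the fewer genes or libraries that some of them use.

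The replicate number as a block gave 734 genes lower and 118 higher, with 6 members (1 sterol, Dhcr7) and 1 other pathway gene lower. Fdps (edgeR adjusted p = 0.0623), Mthfd2 (edgeR adjusted p = 0.0606) and, of the other genes, Ebp (edgeR adjusted p = 0.0763), Lbr, Nr1h2 and Tars were lost. Deviations of libraries with the same number had correlations of -0.32 to 0.41, and no deleted library matched best the control library of its own number. This does not show that the numbers pair the libraries. It cannot exclude it either, since differences across a whole library enter the deviations.

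With each library left out, 1034 to 3245 genes were lower and 167 to 860 higher, with 8 to 11 members lower (2 to 4 sterol, 1 to 2 fatty acid, 5 to 6 amino acid and one-carbon), 0 members higher, and 3 to 16 other pathway genes lower. The lowest counts of all genes were 1034 lower without deleted replicate 5 and 167 higher without deleted replicate 7, and the highest, 3245 and 860, as well as 16 other pathway genes, came without control replicate 2, and 11 members without control replicate 2 or deleted replicate 1. The member of lowest level, Ddit4, rests on 16 to 116 reads per library.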
